A study of Mus musculus with 8 samples.

Results

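The regions described here are windows from 3.0 to 3.5 Mb on each of the 19 mouse autosomes, near where the assembled sequence begins. Each window was divided into 10 kb bins. This gave 950 bins, of which 768 held at least 1 end of a paired-end tag (PET), out of 250577 nuclear bins with an end in the whole data set. They were measured by RNA polymerase II (Pol II) ChIA-PET, in which chromatin is pulled down with an antibody to Pol II, DNA ends held in the same complex are ligated to each other, and both ends of each joined molecule are sequenced as 1 PET. All mice were wild-type C57BL/6 of 3 to 6 months, livers were collected at ZT06 (day) or ZT18 (night), and chromatin of 3 to 7 livers was combined for each sample and pulled down with the Pol II antibody 8WG16. The 8 libraries formed 3 experiments, called JM08 (4 libraries), JM11 (2) and JM12 (2), each with both time points. JM11 was crosslinked with 1% formaldehyde alone. JM08 and JM12 were crosslinked with 1% formaldehyde and 1.5 mM EGS, a second crosslinker that reaches between proteins. The deposited table names the experiment of each PET but neither its library nor its time point, so each experiment is 1 pool, day and night are not separated, and nothing below was tested between conditions.

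Mouse autosomes carry their centromere at one end. The centromere and the chromatin around it consist of long arrays of satellite repeats that are largely missing from the assembled sequence, so the first assembled bases lie next to pericentromeric heterochromatin, which is compact and poor in transcription. Segmental duplications and multi-copy gene families are common at such borders. In many nuclei the pericentromeric blocks of several chromosomes lie together in chromocentres, which hepatocyte nuclei also have, and joining between these windows on different chromosomes is therefore a measure of interest.

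JM08 held 474466 nuclear PETs, JM11 1438852 and JM12 837971, a mean of 3.79, 11.5 and 6.69 ends per nuclear bin. Densities below are ends per bin divided by that mean (relative density, 1 = the mean nuclear bin), so that the experiments can be set side by side, and intervals are exact 95% intervals that cover counting error only. As a check of the tissue, the 4 hepatocyte genes Alb, Apoa1, Ttr and Cps1 had relative densities of 10.1 to 96.9 in JM08, 1.34 to 15.4 in JM11 and 3.89 to 14.6 in JM12, while 10 markers of Kupffer, endothelial, stellate, bile duct and lymphoid cells had 0.406 to 2.09, 0.429 to 1.37 and 0.552 to 1.63. All 4 hepatocyte genes were highest in JM08.

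In the windows the densest bin over a gene of the liver list was that of Selenop, which encodes the selenium transport protein that the liver secretes, followed by that of Cpt1a, which encodes the carnitine palmitoyltransferase that admits long-chain fatty acids to mitochondria. Their promoters are shown because PET ends peaked at or just after these starts in every experiment. Both sequences are RefSeq (GRCm38.p6) from 250 bases before to 50 bases from the annotated start onward, 5′ to 3′ on the strand of the gene. Capitals mark the TATA motif TATAAA in Selenop, and in Cpt1a the GC box GGGCGG, here on the reverse strand as CCGCCC, and the CCAAT box.
Selenop, chr15:3270727-3271026, plus strand: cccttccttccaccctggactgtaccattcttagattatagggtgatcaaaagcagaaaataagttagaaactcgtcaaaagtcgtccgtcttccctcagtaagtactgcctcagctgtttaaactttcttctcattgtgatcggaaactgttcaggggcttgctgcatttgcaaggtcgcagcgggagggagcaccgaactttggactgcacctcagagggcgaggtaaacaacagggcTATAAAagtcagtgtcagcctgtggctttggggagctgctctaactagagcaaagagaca
Cpt1a, chr19:3323051-3323350, plus strand: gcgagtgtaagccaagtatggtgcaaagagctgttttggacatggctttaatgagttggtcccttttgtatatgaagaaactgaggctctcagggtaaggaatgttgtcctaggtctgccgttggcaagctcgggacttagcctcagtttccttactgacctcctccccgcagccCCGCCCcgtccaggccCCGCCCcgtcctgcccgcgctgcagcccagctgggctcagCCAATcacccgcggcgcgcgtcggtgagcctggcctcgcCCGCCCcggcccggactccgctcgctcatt
The TATAAA of Selenop lay 10 to 5 bases before this annotated start, which is 1 of 3 in the table and was taken because it had the most ends around it. Cpt1a had CCGCCC at 75 to 70 and 59 to 54 bases before the start and at bases 20 to 25 after it, with CCAAT at 19 to 15 bases before. On either strand, TATAAA was present in 13.6% of 32851 annotated promoters of the same length, GGGCGG in 35.7% and CCAAT in 37.4%. The E-box CACGTG, present in 7.15%, was in neither of these sequences. The GC content was 48.3% for Selenop and 62.3% for Cpt1a.

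Over all 950 bins, JM08 had 5336 ends, a relative density of 1.48 (1.44 to 1.52). JM11 had 11406 ends and 1.05 (1.03 to 1.06), and JM12 had 7484 ends and 1.18 (1.15 to 1.20). A few bins held much of this signal: 20 bins, picked for high density as defined below, took 59.8%, 50.4% and 48.9% of the ends. Without them the densities were 0.609, 0.530 and 0.615, below a nuclear mean that keeps its own dense bins. That they fell was fixed by the way the bins were picked. These window densities count empty bins too, 182 in all, whereas the nuclear mean is over bins with an end. Per bin with an end the window density was 1.83, 1.29 and 1.46 in JM08, JM11 and JM12. With empty bins counted, it was 1.04, 0.858 and 0.946 without chromosome 9, and 1.26, 0.798 and 0.918 without chromosome 11. Leaving out either chromosome put JM11 and JM12 below 1 on this count, which the empty bins lower. The same values per bin with an end were not computed, so a fall below 1 is not shown on the footing of the nuclear mean. The median of the bins with an end was 0.528, 0.610 and 0.598. The 6 subsets given by experiment and linker showed the same levels, 1.48 and 1.48 in JM08, 1.06 and 1.04 in JM11, and 1.17 and 1.19 in JM12.

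Windows of the same size elsewhere on the same chromosomes did not have this make-up. From 3.5 to 4.0 Mb the density was 0.944, 0.846 and 0.920 in JM08, JM11 and JM12, in the 500 kb from 30 Mb on it was 1.11, 1.07 and 1.11, and in the last 500 kb before the most distal end of each autosome it was 0.803, 0.697 and 0.767. Each of these sets had 1 dense bin, as defined below, against 20. Outside the dense bins the density was lowest nearest 3.0 Mb, in a step where chromosomes 10, 11 and 16 had no end. Per bin with an end it was 0.393, 0.409 and 0.409 from 3.0 to 3.1 Mb. From 3.1 to 3.2 Mb it was 0.476, 0.446 and 0.510, and from 3.4 to 3.5 Mb 0.960, 0.868 and 0.982. The dense bins ran the other way, with 7, 9, 2, 2 and 0 in the successive 100 kb steps.

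**Figure D1:**
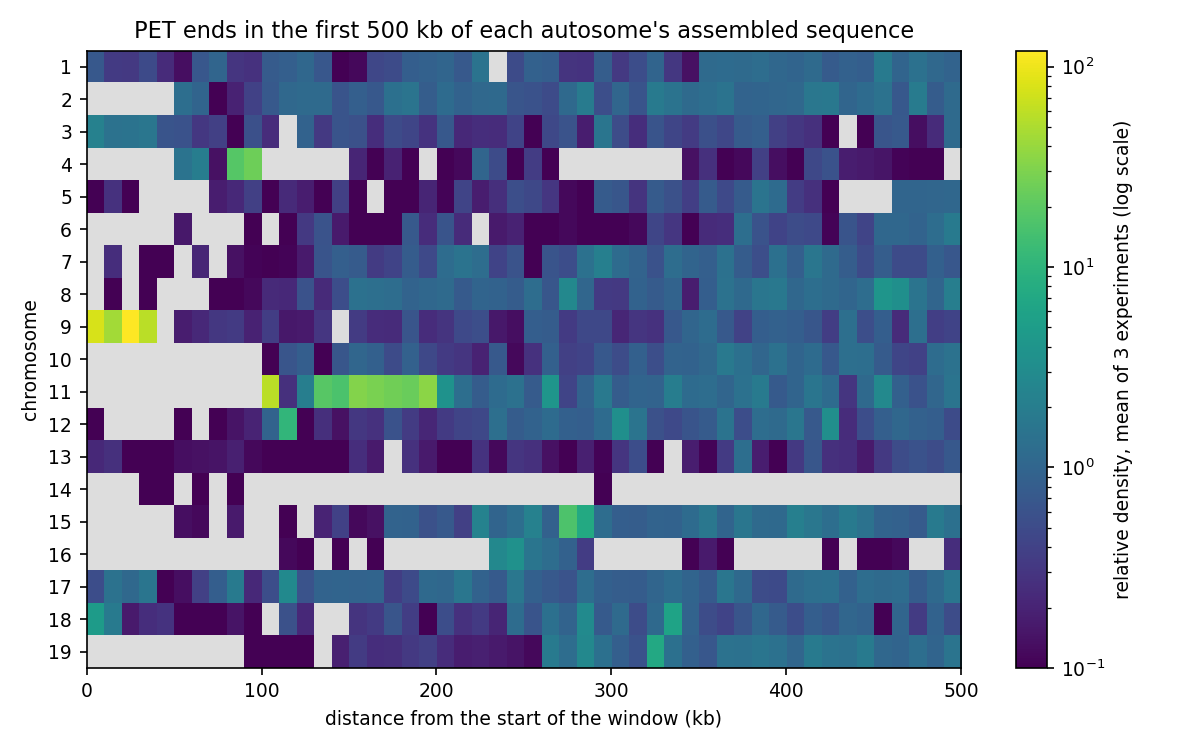
Relative density of PET ends (colour, log scale, mean of 3 experiments) in each 10 kb bin, with the 19 autosomes as rows and distance from 3.0 Mb in kb across; grey bins had no end, and values under 0.1 are drawn at the lowest colour. The bright blocks on chromosomes 9, 11 and 4 lie in the first 200 kb, chromosome 14 is almost empty, and most other rows darken towards the left.

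Bins with no end were frequent. Of the 950 bins, 182 (19.2%) had none in any experiment, 65 of them before the first end of their chromosome, as on chromosomes 10 and 11, where the first end lay in the bin at 3100000. From the first end on, 117 of 885 bins (13.2%) were empty, against 5130 of 240316 (2.13%) along the autosomes between their first and last ends. Chromosome 14 alone had 45 empty bins and only 2 ends in each experiment, and chromosome 16 had 32. Without both, 54 of 799 bins (6.76%) were empty. Empty bins include stretches where no read can be placed, and their part in these counts was not tested.

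The chromosomes differed more from each other than the experiments did. Chromosome 9 had a window density of 9.43 in JM08, 4.42 in JM11 and 5.36 in JM12, and chromosome 11 had 5.57, 5.50 and 5.85. Counted over all bins, empty ones included, these 2 were above 1 in every experiment, and 12 of the 19 were below 1 in every experiment. The lowest after chromosome 14 (0.0106, 0.00348 and 0.00598) were chromosome 13 (0.264, 0.190 and 0.242) and chromosome 16 (0.227, 0.209 and 0.257). Chromosome 15, which carries Selenop, had 2.06 in JM08, 0.700 in JM11 and 1.03 in JM12.

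A bin was called dense where it reached at least 3 times the mean nuclear bin in every experiment. Of the 768 bins with an end, 20 (2.60%) were dense, against 0.182% of all nuclear bins. They lay on 8 chromosomes. The lowest experiment of the bins just inside this threshold was at 3.43 (chr16, 3240000), 3.40 (chr18, 3330000) and 3.31 (chr19, 3320000), and of those just outside at 2.44 (chr11, 3260000), 1.92 (chr8, 3270000) and 1.85 (chr2, 3470000). All but 1 of the dense bins fell into 3 kinds by position and shape. The first were bins towards the start of the windows with ends stacked in places. The second was a block over 1 gene, Sfi1, with ends spread over it, and the third were bins that hold a gene boundary. In bins of 25 kb, 7 were dense.

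The first kind was led by the 4 bins that begin chromosome 9, in none of which the gene table places a protein-coding gene. The bin chr9:3020000-3029999 had a relative density of 187 (173 to 201) in JM08, 69.6 (64.8 to 74.6) in JM11 and 95.5 (88.3 to 103) in JM12. The bin at 3000000 had 108, 60.4 and 65.5, that at 3030000 had 79.7, 44.9 and 50.1, and that at 3010000 had 74.7, 24.6 and 34.1. Every one of the 4 was highest in JM08 and lowest in JM11. Their ends were stacked: in the bin at 3020000, 2146 ends of all experiments lay on 355 positions (16.5%), and 25.8% of them lay within the densest 100 bp. In the bin at 3000000, JM11 alone placed 49.9% of its ends within 100 bp.

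Chromosomes 11, 4 and 12 had bins of the same shape. The first bin of chromosome 11 with an end, chr11:3100000-3109999, had 89.5, 37.4 and 47.0 in JM08, JM11 and JM12, and its densest 100 bp overlapped in every experiment and held 17.5% of 1083 ends over all. On chromosome 4 the adjoining bins at 3080000 (25.1, 15.9 and 14.8) and 3090000 (40.1, 16.2 and 19.44) had 73.2% and 36.8% of their ends in the densest 100 bp, and these stretches lay on both sides of the border between the bins. The bin chr12:3110000-3119999 was the most point-like, with 98.4% of its 183 ends within 100 bp, at densities of 21.4, 6.62 and 3.89. It lay further in than the edge, as chromosome 12 had ends from the bin at 3000000 on. The first bin of chromosome 18, at 3000000, had 5.55, 5.66 and 3.59 and 28.2% in the densest 100 bp.

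The block over Sfi1 had another shape. Sfi1 encodes a centrin-binding protein of the centrosome, and lies at chr11:3131850-3203347. The gene with 2.5 kb on either side had 578 ends in JM08, a relative density of 19.95 (18.4 to 21.6), 2353 in JM11 (26.8, 25.7 to 27.9) and 1315 in JM12 (25.7, 24.3 to 27.1). JM08 was here the lowest experiment, whereas it was the highest at the chromosome 9 bins, at Selenop and over the liver markers. The 7 dense bins from 3130000 to 3199999 ranged from 13.995 to 30.1 in JM08, from 14.7 to 39.0 in JM11 and from 19.1 to 35.0 in JM12. Their ends were spread out: 87.8% to 92.4% lay on distinct positions, and the densest 100 bp held 2.97% to 5.51%.

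Genes next to Sfi1 on the same chromosome did not share its density. Eif4enif1, whose product shuttles the translation factor eIF4E into the nucleus, had 2.18, 1.20 and 2.03 in JM08, JM11 and JM12. Its start overlaps Sfi1, so ends in the shared stretch count for both genes. Drg1, which encodes a GTP-binding protein, had 3.55, 1.62 and 2.08. Rnf185, Patz1, Pik3ip1, Limk2, Pla2g3 and Inpp5j had between 0.33 and 1.76 in JM08, between 1.01 and 1.56 in JM11 and between 1.56 and 2.04 in JM12. The predicted gene Gm51877 (10.3, 6.13 and 8.06) overlaps both Sfi1 and Eif4enif1, so its ends cannot be told apart from those of these genes.

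The third kind held a gene boundary. The Selenop bin, chr15:3270000-3279999, had 37.5 (31.6 to 44.2) in JM08, 5.31 (4.06 to 6.82) in JM11 and 6.58 (4.78 to 8.83) in JM12. It covers the start and most of the gene, and its ends were not confined to the boundary. The Cpt1a bin, chr19:3320000-3329999, had 13.2, 3.31 and 4.93, and the bin chr18:3330000-3339999, at one boundary of Crem, which encodes a transcription factor that answers to cAMP, had 10.8, 3.40 and 4.34. In each of these 3 bins JM08 was well above the others, by 7.06, 3.99 and 3.19 times over JM11, and the ends lay on 91.7% to 93.4% distinct positions. The last dense bin, chr16:3240000-3249999, had 3.43, 3.48 and 3.89 from 79 ends in all, so its values carry wide intervals.

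**Figure D2:**
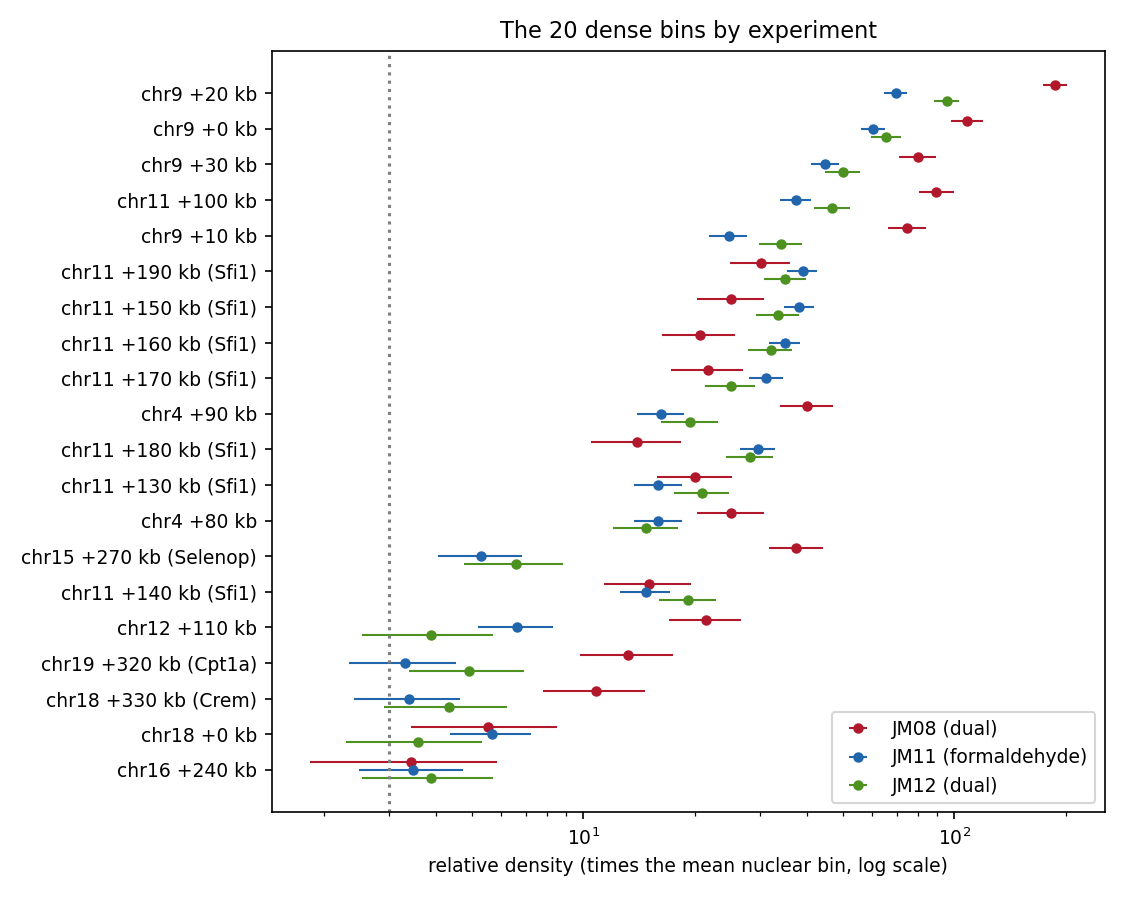
Relative density of the 20 dense bins in each experiment (log scale), ordered by their mean and named by chromosome and distance from 3.0 Mb; lines are exact 95% Poisson intervals and the dotted line marks 3 times the mean. JM08 (red) lies to the right of the others at chromosome 9, chromosome 4, Selenop and Cpt1a, and at or to the left of JM11 (blue) at most Sfi1 bins.

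Compared with dense bins across the genome, those of the windows were less marked by the excess of JM08. JM08 was at least 2 times JM11 in 8 of the 20 (40%), against 89.0% of the 455 dense bins of the genome, and the median ratio of JM08 to JM11 was 1.67 against 3.81. The densest 100 bp overlapped in every experiment in 7 of 20 (35%), against 21.3% of the 455. Fewer than 50% of the ends lay on distinct positions in 8 of 20 (40%), against 5.71%. These 8 were the 4 bins of chromosome 9, both bins of chromosome 4 and those of chromosomes 11 (3100000) and 12.

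Bins with 10% or more of their ends in the densest 100 bp were not more frequent in the windows than over the genome. Of 33 bins with at least 50 ends, 20 (60.6%) had 10% or more of them in the densest 100 bp, against 72.0% of 4476 such bins in the genome. With at least 100 ends required it was 11 of 20 bins, and with 1 experiment left out 12 or 13. The median share was slightly higher in the windows, 13.5% against 12.7% over all. Among the dense bins this share was lowest in the Sfi1 block, at most 5.51%. The bins of chromosome 16 (7.59%), Cpt1a (9.09%), Selenop (10.5%) and Crem (14.7%) followed, and the stacked bins of chromosomes 9, 11, 4 and 12 ranged from 16.4% to 98.4%.

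PETs were then divided by class: both ends within 8 kb on 1 chromosome (near), more than 8 kb apart on 1 chromosome, and on different chromosomes. Near PETs made up 13.6% (12.7 to 14.5) of the window ends in JM08, 4.35% (3.98 to 4.74) in JM11 and 8.91% (8.28 to 9.58) in JM12, below the 22.6%, 6.24% and 14.8% of all other nuclear ends. PETs between chromosomes took up the difference, with 81.9%, 90.4% and 86.1% of the window ends. PETs more than 8 kb apart had 4.50%, 5.22% and 4.94%, against 4.36%, 5.10% and 5.02% elsewhere.

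The low near share came from the dense bins. Without them the windows had 21.8% (20.1 to 23.6), 6.50% (5.87 to 7.18) and 12.97% (11.9 to 14.1) near ends, close to the rest of the genome in JM08 and JM11 and still lower in JM12. The dense bins of the windows had 8.02%, 2.23% and 4.67%, whereas dense bins elsewhere had 40.1%, 21.04% and 20.97%. In the chromosome 9 bins, near ends were 46 of 1703 in JM08 (2.70%), 2 of 2292 in JM11 (0.0873%) and 14 of 1640 in JM12 (0.854%).

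The kinds of dense bin differed here too. The 7 Sfi1 bins had 16.6% (13.6 to 19.9), 3.42% (2.72 to 4.24) and 9.42% (7.88 to 11.1) near ends, lower than the other nuclear ends in each experiment but well above the chromosome 9 bins. The Selenop bin had 33.1%, 26.2% and 31.8%, and the Cpt1a bin had 50.0%, 36.8% and 36.4%, above the other nuclear ends throughout. The Crem bin had 29.3%, 41.0% and 10.3%. In all, 15 of the 20 dense bins (75%) had a near share under that of the nuclear ends in every experiment, against 7.69% of the 455.

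**Figure D3:**
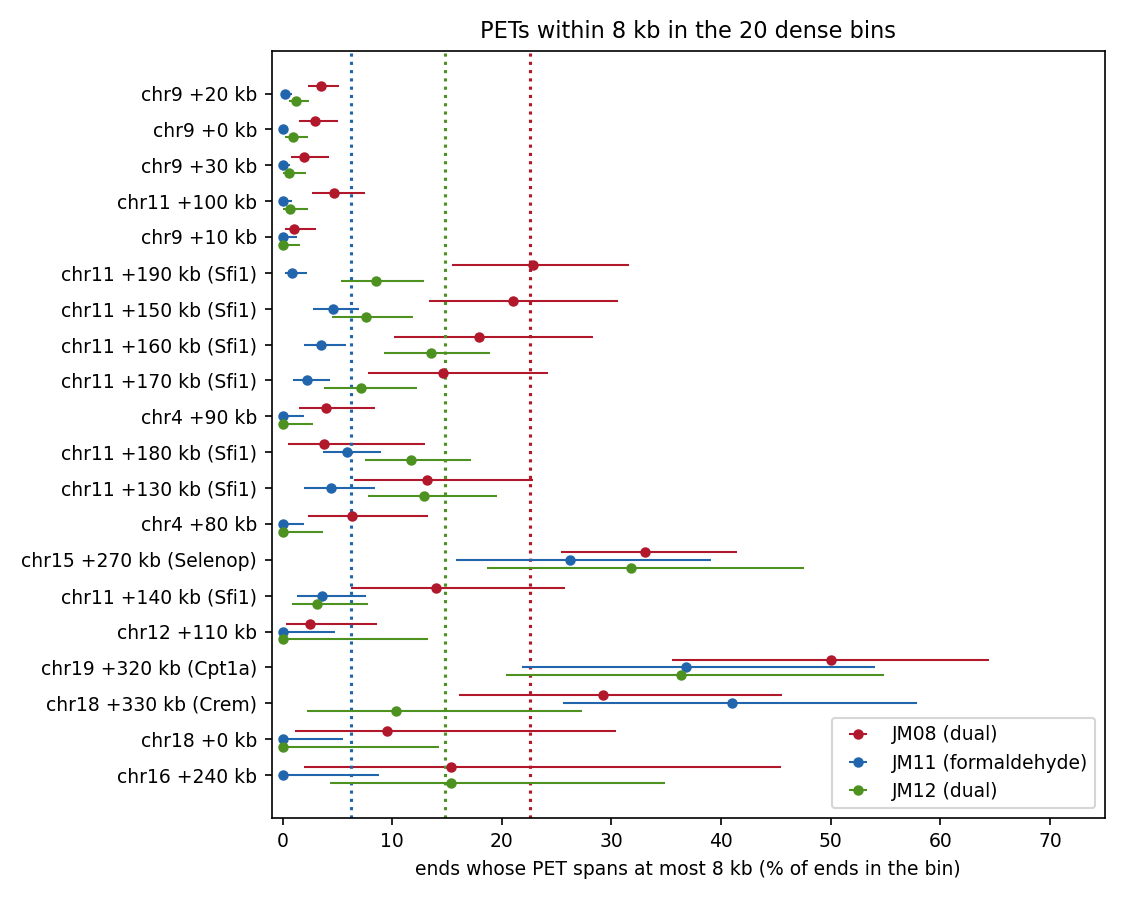
Ends whose PET spans at most 8 kb, as a percentage of all ends of each of the 20 dense bins, by experiment, with exact 95% binomial intervals; dotted lines mark the share over all other nuclear ends in the same colour. The bins of chromosomes 9, 4 and 12 lie near 0, the Sfi1 bins at or under their lines, and Selenop and Cpt1a to the right of them.

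Around the Selenop start, the ends within 500 bp numbered 47 in JM08 (relative density 124, 91.1 to 165), 19 in JM11 (16.5, 9.95 to 25.8) and 18 in JM12 (26.9, 15.9 to 42.5). This start was chosen for having the most ends around it, so a peak beside it partly follows from that choice. The other annotated starts had 42 and 41 in JM08, 18 and 17 in JM11, and 14 and 14 in JM12. In steps of 500 bp, the peak was the first step after the start in every experiment, with 31, 12 and 10 ends. Over the gene with its flanks the density was 35.6, 4.90 and 5.37. At Cpt1a the highest step began 500 bp after the start in JM08 (12 ends) and JM11 (10 ends) and at the start in JM12 (12 ends), while over the whole gene, which is longer, the density was 2.78, 1.16 and 2.27.

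**Figure D4:**
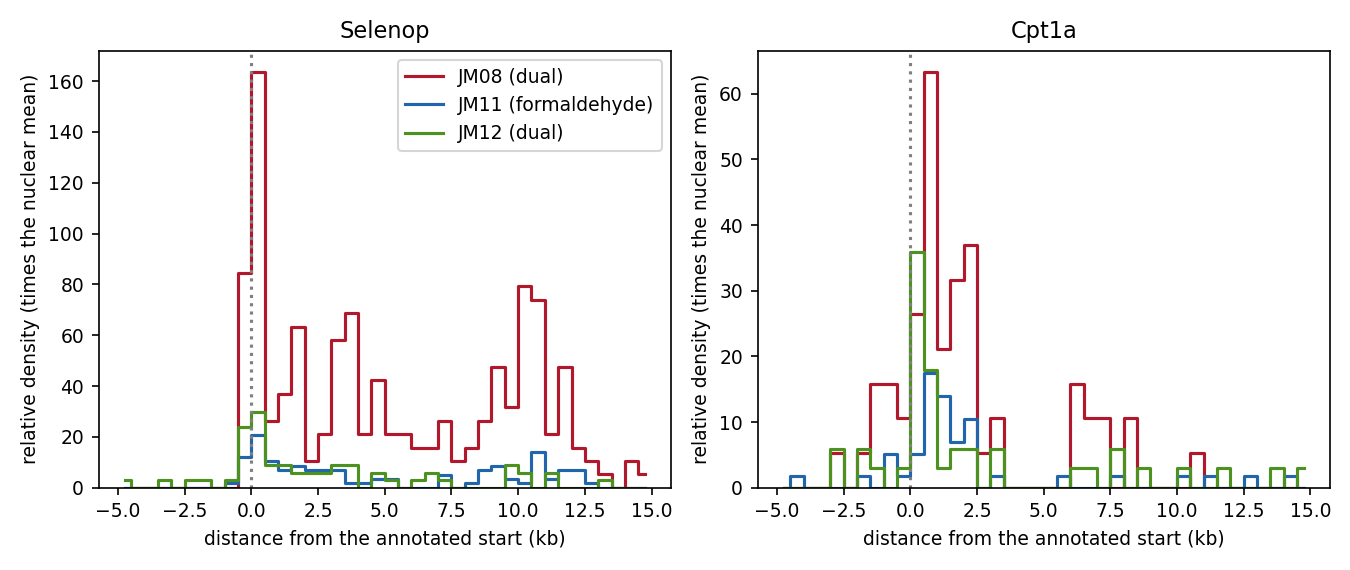
Relative density of PET ends in 500 bp steps from 5 kb before to 15 kb after the annotated start (dotted line) of Selenop (left) and Cpt1a (right), by experiment. Each curve is highest at or just after the start, and the Selenop curve of JM08 stays above those of JM11 and JM12 along most of the gene.

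Of 72 protein-coding genes that overlap the windows, 31 (43.1%) were above the nuclear mean in every experiment, against 38.8% of 21887 genes, a share near the background. A further 20 were below it in every experiment, among them 8 with no end at all, and 21 were mixed. The medians were 1.05, 1.09 and 1.22 against 1.12, 1.10 and 1.30 over all genes. Among liver genes, Ghr, the growth hormone receptor, had 2.22 in JM08, 0.936 in JM11 and 1.86 in JM12, and Insr, the insulin receptor, had 1.15, 0.846 and 1.58. Both had their lowest value in JM11, where the interval included 1, as did that of Insr in JM08 (0.870 to 1.48).

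The other genes with high densities were spread over several chromosomes. Ccdc152 (8.45, 1.78 and 1.37) overlaps the end of Selenop, and ends in the shared stretch count for both genes. Pex11g, which encodes a peroxisomal membrane protein, had 4.76, 1.85 and 3.27. Mrpl21, for a protein of the mitochondrial ribosome, had 3.02, 1.29 and 2.72, Myadm, for a membrane protein, had 3.10, 1.25 and 2.34, and the zinc finger gene Zfp358 had 2.91, 1.25 and 1.81. These 4 were ordered alike, with JM08 above JM12 and JM12 above JM11.

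The sensory receptor genes of the windows had few ends, and each is 0.921 kb long. The 3 vomeronasal receptor genes in the windows, Vmn1r2, Vmn1r3 and Vmn1r238, had 0, 0 and 1 ends in JM08, 1, 1 and 3 in JM11 and 1, 0 and 1 in JM12. In JM08 all 3 intervals included 1, with upper limits of 1.65, 1.65 and 2.48. The intervals lay below 1 for Vmn1r2 and Vmn1r3 in JM11 (up to 0.819) and for Vmn1r3 in JM12 (up to 0.931). None was above the nuclear mean in every experiment, as were 6.14% of all 1465 sensory receptor genes. With 3 genes, these shares cannot be compared. Vmn1r2 and Vmn1r3 lie on chromosome 4, where 19 of the 50 bins were empty. On chromosome 14, where 45 of the 50 bins were empty, 7 of 9 genes had no end. Where a gene is listed with 0 ends in a pool, a count of up to 3 ends would be compatible with that.

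Joining between the windows of different chromosomes was near the number expected by chance, computed from the read-1 and read-2 ends of each window in the same experiment and linker. In JM08, 10 PETs were seen against 11.6 expected, a ratio of 0.864 (0.414 to 1.59). In JM11, 13 were seen against 18.8 (0.693, 0.369 to 1.18), and in JM12, 19 against 13.8 (1.37, 0.827 to 2.14). Over all experiments the ratio was 0.951 (0.685 to 1.29), with 42 PETs against 44.2. Every interval included 1, and an excess of up to 1.29 times lay within the interval over all experiments.

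Other sets of windows gave ratios in the same range. Over all experiments the ratio was 0.758 (0.456 to 1.18) for 3.5 to 4.0 Mb, 1.12 (0.809 to 1.51) for the windows that start at 30 Mb and 1.07 (0.642 to 1.66) for the distal windows. Of the 171 pairs of chromosomes, 143 had no PET joining their proximal windows, 22 had 1, 5 had 2, and the pair of chromosomes 9 and 11 had 10 against 7.11 expected (1.41, 0.675 to 2.59). The 5 pairs with 2 PETs were 1 with 9, 2 with 9, 4 with 9, 9 with 19, and 11 with 18. Pairs that contain chromosome 9 or 11 also had the largest expected numbers. Without the dense bins JM08 had 0 PETs against 1.79 expected, JM11 3 against 4.84 and JM12 7 against 3.61 (1.94, 0.780 to 4.00).

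**Figure D5:**
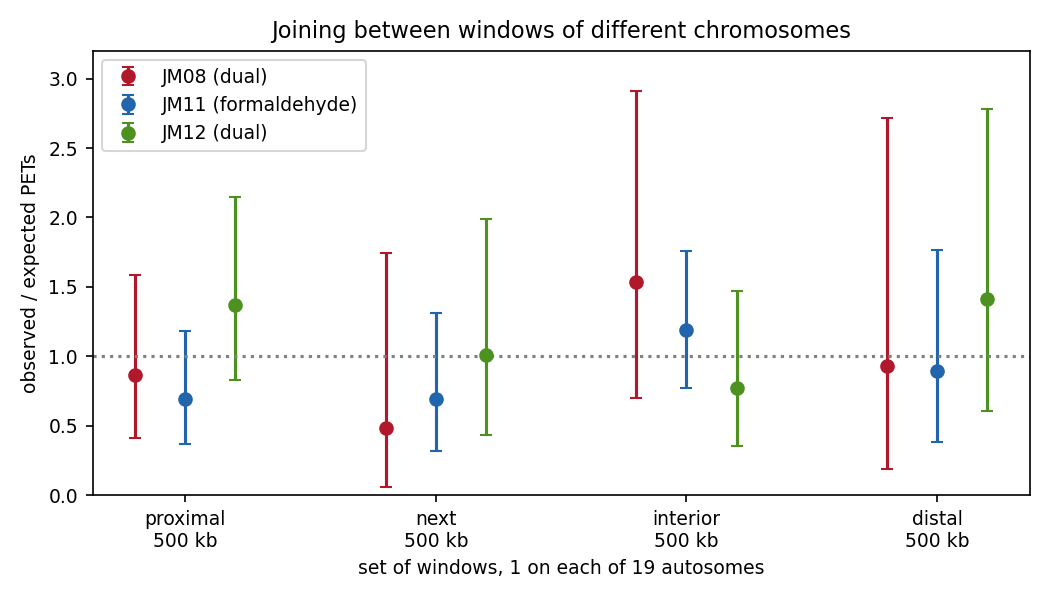
Observed over expected PETs between windows of different chromosomes, for the proximal 500 kb and 3 other sets of windows of the same size, by experiment, with exact 95% Poisson intervals; the dotted line marks 1. All 12 intervals include 1.

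The dense bins of the windows were also set against dense bins elsewhere in the genome. JM08 had 114 such PETs between chromosomes against 84.2 expected (1.35, 1.12 to 1.63), JM11 44 against 48.6 (0.906, 0.658 to 1.22) and JM12 40 against 46.7 (0.856, 0.612 to 1.17). Over all experiments the ratio was 1.10 (0.955 to 1.27). Only in JM08 did the interval lie above 1, and the difference between the experiments was not tested. With PETs whose ends both lay within 10 bp of another's counted as 1, the ratio in JM08 was 1.34 (1.11 to 1.62). The dense bins elsewhere joined each other at 1.09 (0.982 to 1.21), 1.71 (1.48 to 1.97) and 1.19 (1.02 to 1.39) times chance, and at 1.23 (1.15 to 1.33) over all experiments.

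The 4 chromosome 9 bins were then set against the 2 densest bins outside the windows, chr2:98660000-98669999 (558, 354 and 351 in JM08, JM11 and JM12) and chr14:19410000-19419999 (600.2, 259 and 339.5), a choice made after their values were seen. JM08 had 15 PETs against 8.97 expected, JM11 10 against 5.92 and JM12 6 against 5.11, which together gave 1.55 (1.05 to 2.20). Each interval of a single experiment included 1. Over all experiments, the Sfi1 bins joined dense bins elsewhere at 0.872 (0.631 to 1.17) times chance. The Sfi1 bins and the 4 chromosome 9 bins joined each other at 0.695 (0.143 to 2.03) times chance, with 3 PETs against 4.32 expected. The dense bins of the windows joined each other at 1.27 (0.655 to 2.21) times chance. Partners of the window ends on other chromosomes lay within 2.5 kb of a gene boundary in 15.6%, 8.32% and 11.6% of cases, against 14.96%, 8.19% and 12.2% of all ends of PETs between chromosomes.

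Contacts within a window were rare. PETs with both ends in 1 window and 8 to 100 kb apart numbered 3 in JM08, 2 in JM11 and 6 in JM12, 11 in all, against 12 from 3.5 to 4.0 Mb, 15 in the windows that start at 30 Mb and 6 in the distal windows. Selenop had 2 of them from different experiments with nearly the same ends: 1 PET of JM08 joined 3229803 to 3270536 on chromosome 15 (40.7 kb), and 1 of JM12 joined 3231167 to 3272105 (40.9 kb). The far ends lay in a stretch without a protein-coding gene in the table. Crem had 2 PETs in JM08 over 66.8 kb that shared one end position, so they may be copies of 1 molecule. Sfi1 had 1 PET within the gene (44.6 kb, JM11) and 1 to Eif4enif1 (69.7 kb, JM12). Cdk6, Tiam2, Insr, Rab10 and a stretch of chromosome 3 had 1 each, and single PETs at this depth do not separate a contact from chance ligation.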

How the data were processed

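RNA polymerase II ChIA-PET was done on 8 libraries of mouse liver. The authors deposited 1 table with a row per PET that gives the experiment, the linker of each read and the chromosome and position of both ends; per the submitters' processing notes, reads were aligned with Bowtie2 to mm10. Which filters were applied, how reads with several matches were treated and whether duplicates were removed is not given in these sources. Reads from repeated sequence can be stacked on the copies that an assembly holds, and the part of this in the densities was not tested.

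PETs with a mitochondrial end were set aside. Ends were counted in 10 kb bins and divided by the mean of all nuclear bins with an end. Window densities count empty bins too, unless given per bin with an end. Chance joining was computed from the products of read-1 and read-2 ends of PETs between chromosomes, per experiment and linker, and checked on simulated data. Intervals are exact 95% Poisson or Clopper-Pearson intervals. RefSeq tables on GRCm38.p6, the assembly that mm10 names, gave genes and promoters. With 2 dual-crosslinked pools against 1, the smallest two-sided permutation p is 0.333, so no condition was tested. The members and lists were chosen with earlier results of these data known. Named were the 12 densest bins and the densest bin of each chromosome, the liver genes Selenop, Ghr, Cpt1a and Insr, Sfi1 and its neighbours, sensory receptors, the 10 genes of highest mean density and the 5 chromosome pairs with the most PETs. All 20 dense bins, the 6 leading pairs (5 were tied), Crem, the genes at single contacts and the Selenop and Cpt1a promoters were named after their values were seen. Alternatives were other windows, bin sizes, thresholds and distance limits, collapsed near-duplicates, and leaving out chromosomes, dense bins or experiments. Python 3.11.15 with pandas 2.3.3, NumPy 2.4.6 and SciPy 1.17.1 was used.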

Additional observations from a re-analysis of the deposited data

Results flagged for a closer look

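PETs that joined a nuclear end to the mitochondrial chromosome were outside the comparisons above. In JM12, 11 of them had their nuclear end in a proximal window, above the 3 PETs that could go unseen at a count of 0, whereas JM08 and JM11 had 0. JM12 held 1953 PETs with 1 mitochondrial end, against 11 in JM08 and 13 in JM11. The windows' share of nuclear ends alone would give 8.72 in JM12, 0.0619 in JM08 and 0.0515 in JM11. At such numbers, the counts of 0 in JM08 and JM11 do not set these pools apart from JM12. The difference between the experiments was not tested.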

How the results depend on the processing

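Of 93 alternative values for 27 results, 59 lay within the counting interval of the value reported (for counts, within 1.5 times it) and 34 lay outside. The relative densities of JM08, JM11 and JM12 were 1.04, 0.858 and 0.946 without chromosome 9, 1.21, 0.946 and 1.05 for 3.0 to 4.0 Mb, and 1.66, 1.07 and 1.26 with only PETs between chromosomes. Counted per bin with an end they were 1.83, 1.29 and 1.46, without chromosome 11 they were 1.26, 0.798 and 0.918, and without chromosomes 9 and 11 they were 0.775, 0.585 and 0.657. These 3 settings were chosen after seeing the data, as were near-duplicates collapsed for the dense bins (20) and chance computed within chromosome pairs. With empty bins counted, JM11 and JM12 thus fell below 1 when chromosome 9 or chromosome 11 was left out, and JM11 also for 3.0 to 4.0 Mb. JM08 fell below 1 only without both chromosomes. Per bin with an end, these settings were not computed, so a fall below 1 is shown only with empty bins counted. The near share without chromosome 9 was 18.9%, 5.53% and 11.3%. The count of 20 dense bins became 7 in 25 kb bins, and ranged from 20 to 21 with 1 experiment left out. The count of 20 bins with 10% of ends in the densest 100 bp became 11 of 20 bins with at least 100 ends, and ranged from 12 to 13 with 1 experiment left out, since fewer bins then reached the minimum. The joining ratio without dense bins was 0 in JM08, 0.619 in JM11 and 1.94 in JM12, all from few PETs. Of 30 alternative values for single genes 7 moved, all at Sfi1 and Selenop. No paired analysis was possible because the deposited table carries no library or replicate number. Depth limits the joining ratios, which rest on 10 to 19 PETs per experiment, and the contacts within windows, and the experiments differ in depth and in signal over liver genes as well as in crosslinking, which cannot be told apart here.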
